A study of Homo sapiens with 4 samples.

Results

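The 10 genes described here encode epithelial junction proteins and factors of the epithelial to mesenchymal transition (EMT): CDH1, CDH2, CTNNA1, CTNND1, JUP, DSP, TJP1, ZEB1, SNAI2 and EPCAM. They were taken by symbol from 2 annotated peak lists that together named 14483 genes. Of the 10, replicate 1 peaks named 9 and replicate 2 peaks named 8, and SNAI2 was named in neither. The lists came from RNA immunoprecipitation and sequencing, in which RNA bound to a protein is recovered with an antibody and read beside the input RNA. The tested samples were 2 immunoprecipitates (IP) made with a YBX1 antibody, and the other 2 samples were inputs made without antibody. All 4 came from PANC-1, an established line of human pancreatic cancer, and all had been treated beforehand with vesicles (Evs) derived from CAFs, the field's abbreviation for cancer-associated fibroblasts. Each list set 1 IP against its own replicate's input; no untreated cells and no control antibody were analysed here. The values are thus of RNA that came down with YBX1, relative to input, in treated cells of 1 line, and nothing in the labels tells if the replicates were separate cultures.

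YBX1 binds RNA through its cold-shock domain and takes part in the storage, stability and translation of messenger RNA. CDH1 (E-cadherin) joins epithelial cells at adherens junctions, and its cytoplasmic tail is tied to actin through the catenins. Desmosomes and tight junctions are the other main contacts of an epithelium. In EMT, repressors such as ZEB1 and SNAI2 bind E-box sequences and lower CDH1 transcription, and many cells then make CDH2 (N-cadherin) instead.

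The lists differed in depth, which bears on every value below. Reads inside peaks summed to 12243468 in replicate 1 and 3140931 in replicate 2, over 27669 and 25492 peaks with medians of 45 and 15 reads. The members had 41 peaks in replicate 1 with a median of 77 reads, and 38 peaks in replicate 2 with a median of 12 reads. In replicate 2, 23 of the 38 held under 20 reads, and the authors' false discovery rate was 100% for 21 of the 38, as for 14262 of all 25492 peaks of that list. In replicate 1 the rate ran from 17.2% to 20.4% over the members. Neither the labels nor the headers say whether reads in a peak include input reads, and they are given below as listed. Intervals on reads are exact 95% Poisson intervals and cover counting error only.

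Promoter peaks lay across the listed start of 2 members with a promoter sequence in the RefSeq table, CDH2 and DSP. RefSeq held 2 windows for CDH2 and 1 for DSP, and 1 window of each gene is shown. Each runs from 250 bases before to 50 after the start on GRCh38.p14, whereas the peaks are on hg19, so the fit between window and peak was not tested. Capitals mark CCAAT or ATTGG, the core of the Y-box that gave YBX1 its name, and CAGGTG or CACCTG, the E-box form bound by ZEB1 and SNAI2; both strands were searched and the motifs do not overlap each other here.
CDH2, chromosome 18, 28177081 to 28177380, minus strand: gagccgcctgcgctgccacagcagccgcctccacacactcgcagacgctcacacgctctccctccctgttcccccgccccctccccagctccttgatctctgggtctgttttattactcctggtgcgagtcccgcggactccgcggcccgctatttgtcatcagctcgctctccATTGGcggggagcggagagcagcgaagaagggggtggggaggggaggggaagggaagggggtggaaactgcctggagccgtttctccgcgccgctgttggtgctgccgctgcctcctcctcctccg
DSP, chromosome 6, 7541421 to 7541720, plus strand: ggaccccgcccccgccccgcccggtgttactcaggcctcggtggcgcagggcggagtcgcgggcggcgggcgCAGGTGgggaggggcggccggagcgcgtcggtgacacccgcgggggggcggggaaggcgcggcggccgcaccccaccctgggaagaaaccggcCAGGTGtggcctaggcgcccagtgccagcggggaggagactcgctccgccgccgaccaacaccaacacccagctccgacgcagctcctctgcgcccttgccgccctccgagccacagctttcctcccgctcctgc
The CDH2 window held 1 Y-box core, at -76 from the start, and 0 E-boxes. The DSP window held 2 E-boxes, at -178 and -85, and 0 Y-box cores. Of all 35116 RefSeq windows of this length, 34.6% held a Y-box core and 20.6% an E-box, so a match is a description and not a site. The CDH2 promoter peak, at chr18:25757328-25757598 on hg19, was in the replicate 2 list alone and held 8 reads (interval 3.45 to 15.8). The DSP promoter peak, at chr6:7541734-7542383, was in the replicate 1 list alone and held 95 reads (interval 76.9 to 116). The listed DSP start on hg19 was 7541807. The transcripts listed for DSP spanned 45144 bp on hg19, while its RefSeq gene is 45044 bp long on GRCh38. The window may therefore have another start, and the marked E-boxes could not be placed inside or outside the peak. Whether either promoter peak covers a marked motif was not tested. Neither promoter peak was therefore seen in both lists.

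Peaks that touched a peak in the opposite list, over at least 1 bp, are called shared here, and a gene counts where such peaks name it in both lists. By this rule 5 of the 10 members held a shared peak: CDH1, CDH2, CTNND1, JUP and TJP1. Over all 29989 RefSeq genes the share was 16.8%, over the 19443 protein-coding genes it was 21.5%, and over the genes named in either list it was 35%. Both lists named 8 of the 10, where the background was 26% of all genes and 32.8% of protein-coding genes; the background for 1 list was 38% in replicate 1 and 36.1% in replicate 2. The members were chosen with earlier results known, and the part of transcript abundance in these counts was not tested. Peak by peak the members were near the background. Of their replicate 1 peaks, 12 of 41 were shared (29.3%, 95% Wilson interval 17.6% to 44.5%), against 31.6% of all peaks of that list. Of their replicate 2 peaks, 12 of 38 were shared (31.6%, interval 19.1% to 47.5%), against 34.7% of all peaks.

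Exons held more of the members' peaks than any other class. The exon class held 24 of 41 peaks in replicate 1 (58.5%, Wilson interval 43.4% to 72.2%), against 33.1% of all peaks, and 18 of 38 in replicate 2 (47.4%, interval 32.5% to 62.7%), against 31.1%. The upstream class, which the annotation gives to peaks before a start, held 0 and 1 of the members' peaks, against 21.6% and 19.3% of all peaks. No test was made of these differences, since peaks of 1 gene are not independent. All 5 members with a shared peak held a shared exon peak, as 6.34% of RefSeq genes and 9.57% of protein-coding genes did. In each list 9 of the members' 12 shared peaks were exonic, against 40% of all shared peaks in replicate 1 and 39.2% in replicate 2, and the others were 2 intron peaks and 1 intergenic peak.

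**Figure D1:**
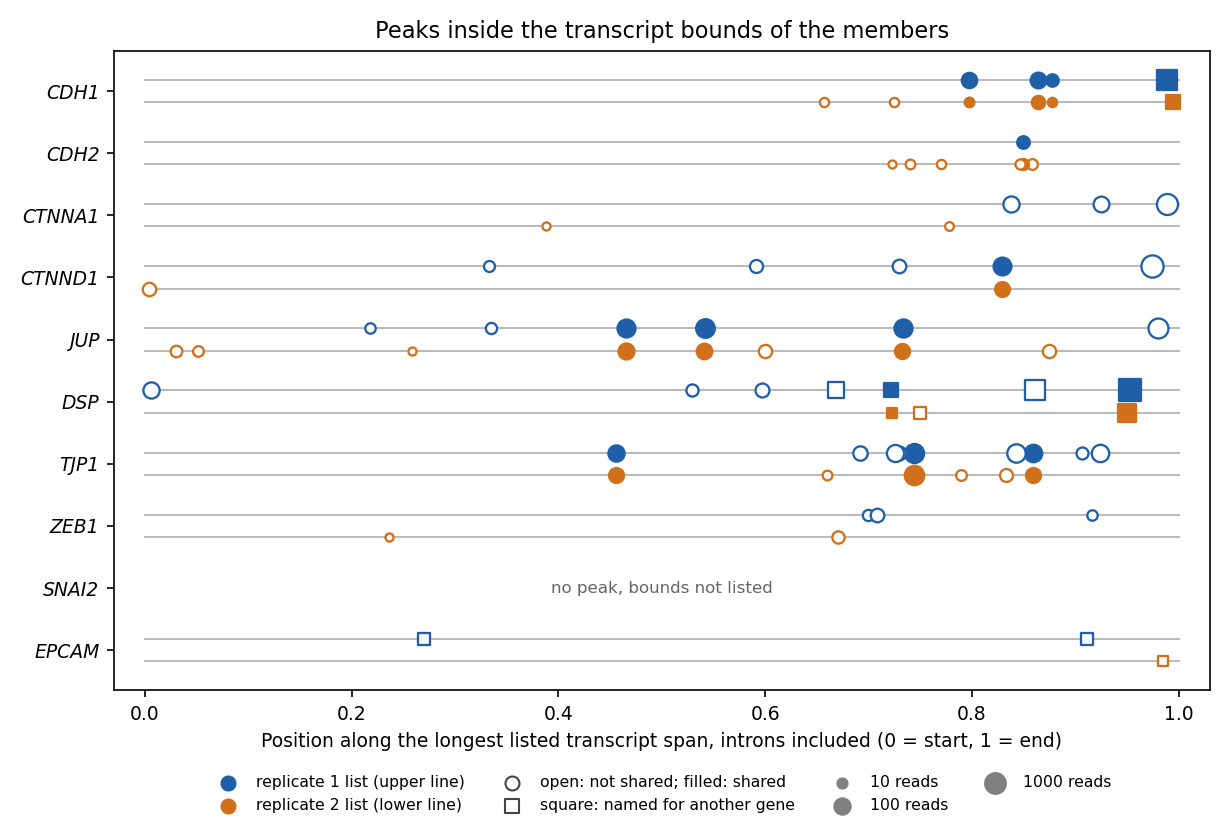
Peaks whose middle lay inside the listed hg19 transcript bounds of each member, placed along the longest listed transcript span (0 is the start, 1 the end, introns included), with the replicate 1 list on the upper and the replicate 2 list on the lower line. Area grows with the log of the reads, filled symbols are shared peaks and squares are peaks that the annotation named for another gene; the squares at the ends of CDH1 and DSP carry most of these genes' replicate 1 reads.

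CDH1 held 3 replicate 1 peaks, all in exons and all shared, with 64, 78 and 21 reads. In replicate 2 it held 6 peaks with 7 to 29 reads, of which 5 were exonic and 1 lay -37482 bp from the start. The strongest lay at chr16:68855890-68856183 in replicate 1, with 78 reads (interval 61.7 to 97.3) and a fold over input of 33.14. Its partner at chr16:68855892-68856189 in replicate 2 held 29 reads and had a fold of 122.34. The edges of this pair differed by 2 and 6 bp. Those folds stood above 98.9% of the peaks of the replicate 1 list and 99.6% of the peaks of the replicate 2 list. The reads stood lower, above 61.9% and 65.8% of the peaks. The shared peak at chr16:68849316-68849678 had 64 reads in replicate 1 and 9 in replicate 2 (folds 5.37 and 37.97), and the one at chr16:68857325-68857535 had 21 and 8 reads (folds 5.12 and 33.75). The 3 shared peaks lay at 0.797 to 0.878 of the way along the gene, and no promoter peak was named for CDH1 in either list.

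The CDH1 folds need their read counts beside them. In each list the fold never exceeded a fixed multiple of the reads, 0.718 per read in replicate 1 and 4.22 per read in replicate 2, and 0 peaks lay above those lines. All 6 replicate 2 peaks of CDH1 lay on the line within 0.2%, so 122.34 was as high a fold as any peak with 29 reads had in that list. Of the members' replicate 2 peaks, 16 of 38 lay on the line (42.1%), against 30.6% of all peaks. In replicate 1 it was 8 of 41 (19.5%), against 30.6%, and 0 of the 3 CDH1 peaks did. For peaks on the line the fold orders peaks only by their reads.

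**Figure D2:**
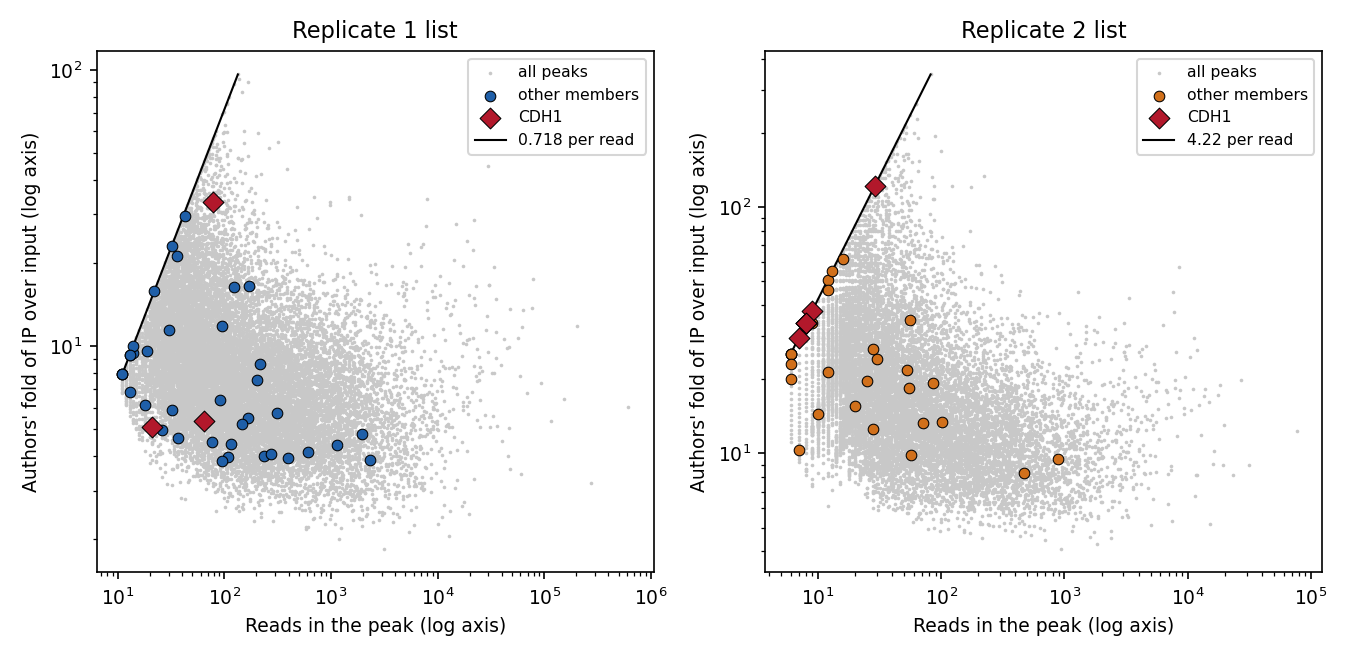
The authors' fold of IP over input against the reads in each peak, both on log axes, for the replicate 1 and replicate 2 lists; grey points are all distinct pairs of values, coloured points are peaks named for the members, and the line is the highest fold per read, 0.718 and 4.22. All 6 replicate 2 peaks of CDH1 sit on the line, while its replicate 1 peak with fold 33.14 sits below it.

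A further CDH1 signal carried another gene's name. A peak at chr16:68867126-68869474, which reached 29 bp past the listed CDH1 transcript end, held 638 reads in replicate 1 (interval 589 to 689, fold 4.1). A replicate 2 peak at chr16:68868433-68869443 overlapped it and held 51 reads (fold 13.12). The annotation named both for TANGO6, as upstream peaks. They made up 79.7% of the reads in peaks inside the CDH1 bounds in replicate 1 and 45.1% in replicate 2. Peaks inside the CDH1 bounds held 801 reads in replicate 1 and 113 in replicate 2, while peaks named for CDH1 held 163 and 69.

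The 5 genes nearest to CDH1 were sought over 4 values, the log2 of the highest fold and of the summed reads of shared peaks in each list, among 5062 genes with a shared peak. TMEM38A, a cation channel of internal membranes, was nearest at a distance of 0.44, with folds of 30.69 and 95 and 184 and 42 reads in replicates 1 and 2. DGKD, a diacylglycerol kinase, and SNX19, a sorting nexin, followed at 0.79 and 0.81. The mannosyltransferase ALG9 and the palmitoyltransferase ZDHHC9 lay at 0.90 each. Each point rests on 1 library per replicate, so the order of neighbours at 0.79 to 0.90 has no error of its own.

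CDH2, the N-cadherin gene, had 2 peaks in replicate 1 and 8 in replicate 2. The exon peak at chr18:25564948-25565233 held 22 reads in replicate 1 (interval 13.8 to 33.3, fold 15.8), and its partner at chr18:25564954-25565230 held 13 reads in replicate 2 (interval 6.92 to 22.2, fold 54.84). The other 5 exon peaks of CDH2 were in replicate 2 alone and held 6 to 12 reads. Exon peaks of CDH2 thus held few reads in both lists. Most of its reads lay elsewhere, in an intergenic peak at chr18:26231395-26233270, -474922 bp from the listed start, with 1949 reads in replicate 1 and 888 in replicate 2 (folds 4.8 and 9.52). This peak had the same start and end in both lists, as 22 of all 8734 shared pairs had (0.252%). Without it CDH2 had 22 reads in peaks in replicate 1 and its shared exon peak remained. At -log10 p of 20 or more in both lists, the shared peak of CDH2 was this intergenic one alone, with a smaller fold of 4.8.

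The catenins bind the cadherin tails. CTNND1 (p120-catenin, which holds cadherins at the membrane) had 5 peaks in replicate 1 and 2 in replicate 2. Its shared exon peak lay at chr11:57576677-57576992 with 203 reads in replicate 1 (fold 7.57) and at chr11:57576665-57576994 with 53 reads in replicate 2 (fold 21.86). The annotation names the read-through gene TMX2-CTNND1 beside CTNND1 for the replicate 1 peaks, so these reads cannot be assigned to 1 of the pair. Its largest peak, at chr11:57583735-57586658, held 2348 reads in replicate 1 (fold 3.88) and overlapped no replicate 2 peak. In replicate 2 the other peak was a promoter peak 218 bp after the start, with 30 reads.

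JUP (plakoglobin, a catenin of both adherens junctions and desmosomes) had 6 peaks in replicate 1 and 8 in replicate 2, of which 3 in each list were shared. The exon peak at chr17:39927845-39928174 held 216 reads in replicate 1 and 86 in replicate 2 (folds 8.59 and 19.31). The intron peak at chr17:39925185-39925961 held 313 and 71 reads (folds 5.71 and 13.3), and the exon peak at chr17:39919192-39919675 held 234 and 57 (folds 3.99 and 9.85). These 3 kept their order by fold but not by reads, since the intron peak had the most reads in replicate 1 and the first exon peak the most in replicate 2. Promoter peaks of JUP, 976 and 1642 bp after its start, were in replicate 2 alone with 16 and 12 reads.

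CTNNA1 (alpha-catenin, which links the cadherin complex to actin) was named in both lists but held no shared peak. Its 7 replicate 1 peaks held 1544 reads and its 5 replicate 2 peaks held 36. Exon peaks were 3 in replicate 1, with 91, 77 and 1129 reads, and 0 in replicate 2. The replicate 2 peaks, 2 in introns and 3 before the start, held 6 to 9 reads each. The transcripts listed for CTNNA1 spanned 59806 bp on hg19, while its RefSeq gene is 181610 bp long on GRCh38. Whether the 3 peaks before the listed starts in each list, at -50568 to -8629 bp, lie inside the longer gene was not tested.

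DSP (desmoplakin, which ties desmosomes to intermediate filaments) had 4 named peaks in replicate 1 and 1 in replicate 2, none of them shared. The named exon peaks held 19 and 36 reads in replicate 1 (folds 9.59 and 21.24), and the only replicate 2 peak was intergenic, -24452 bp from the start, with 102 reads. By place rather than by name the picture differed. Inside the DSP bounds lay 4 replicate 1 peaks with 2459 reads and 3 replicate 2 peaks with 339 reads that the annotation named for SNRNP48, as upstream peaks. They made up 94.3% of the reads in peaks inside DSP in replicate 1 and 100% in replicate 2. The largest, at chr6:7582858-7586828, held 1688 reads in replicate 1 (fold 6.27) and overlapped a replicate 2 peak at chr6:7582791-7586599 with 311 reads (fold 10.01). A smaller pair held 33 and 13 reads. Counted by transcript bounds, DSP joined the genes with a shared peak and 6 of the 10 members had one, where 20.7% of protein-coding genes did.

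TJP1 (ZO-1, the scaffold that ties tight junctions to actin) had the most named peaks of the members in replicate 1, 10 against 6 in replicate 2, with 3 shared in each list. The exon peak at chr15:30008742-30009122 held 172 reads in replicate 1 and 56 in replicate 2 (folds 16.47 and 34.81), and its edges differed by 2 and 10 bp. The exon peak at chr15:30058479-30058790 held 96 and 55 reads (folds 3.85 and 18.43). The intron peak at chr15:30022831-30023287 held 395 reads in replicate 1 and 470 in replicate 2 (folds 3.94 and 8.35). It was the member pair with more reads in the shallower list, at a ratio of 1.19, where the median over all shared pairs was 0.331 and 4.52% of pairs exceeded 1. The highest TJP1 fold in replicate 1, 29.6 with 43 reads in an exon at chr15:30029405-30029684, overlapped no replicate 2 peak.

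**Figure D3:**
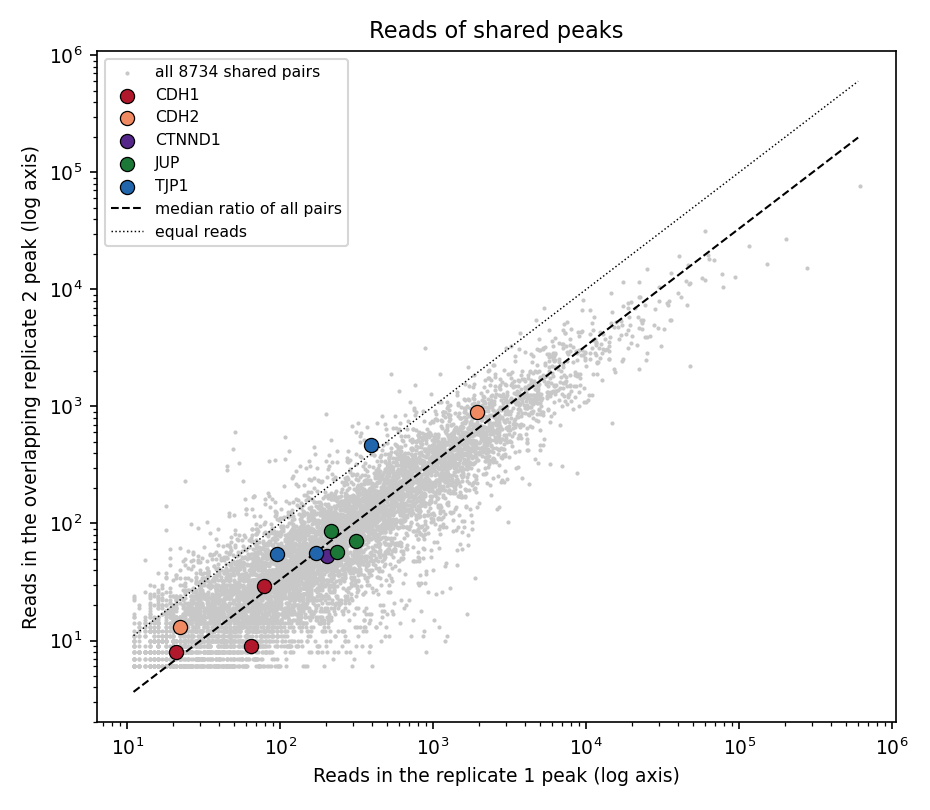
Reads in each replicate 1 peak against reads in the replicate 2 peak that overlaps it most, both on log axes, for all 8734 shared pairs (grey) and the 12 member pairs (coloured by gene); the dashed line is the median ratio of 0.331 and the dotted line is equal reads. The TJP1 intron pair lies above equal reads, and the other 11 member pairs lie below it.

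The EMT factors and EPCAM gave little. ZEB1, a zinc finger repressor of CDH1, had 3 intron peaks in replicate 1 with 14, 32 and 11 reads and 2 peaks in replicate 2, an intron peak with 6 reads and an exon peak with 20. None overlapped. All 3 replicate 1 peaks lay on the line of highest fold per read, so their folds of 10.05, 22.98 and 7.9 follow their reads. SNAI2, a second repressor of CDH1 whose RefSeq gene is 3832 bp long, was named by 0 peaks, and its bounds are not listed in either file. EPCAM, an epithelial adhesion molecule, was named by 1 promoter peak in replicate 1 with 13 reads and by 0 in replicate 2. Inside its bounds lay a replicate 1 peak named for MIR559, with 24 reads, that overlapped no replicate 2 peak. A gene without a peak in these lists may still be bound or may not be transcribed, and the depth does not separate these.

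In replicate 1 some of the junction genes had a large peak at the 3' end. CDH1, CTNNA1, CTNND1, JUP and DSP each had their highest read count in the peak nearest the transcript end, with its edge 6 to 122 bp from that end. These peaks held 638, 1129, 2348, 614 and 1688 reads and had folds of 4.1, 4.38, 3.88, 4.13 and 6.27. TJP1 and CDH2 did not have this, since their peaks of most reads, with 395 and 22 reads, ended 31261 and 34022 bp from the transcript end. Within 200 bp of the end, a distance chosen after the values were seen, lay the peak of most reads of 5 of the 9 members with a peak inside their bounds in replicate 1 and of 2 of 9 in replicate 2. Over all protein-coding genes with such a peak the shares were 34.5% and 25.6%, and no test was made of the difference. Their reads stood above 89.2% to 97% of the replicate 1 peaks, and their folds above 4.32% to 22.3%. In replicate 2, CDH1 and DSP held a peak that overlapped it, and CTNNA1, CTNND1 and JUP did not. Peaks inside the members' bounds lay late along the genes in general, with 19 of 40 in the last 0.25 of the span in replicate 1 (47.5%) and 16 of 36 in replicate 2 (44.4%). Over all coding genes that share was 41.1% and 37.8%, so the members were close to it.

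Read counts of the members varied over a wide range among genes named in the same list. Peaks named for CTNND1 summed to 2622 reads in replicate 1, CDH2 to 1971, CTNNA1 to 1544, JUP to 1402, TJP1 to 1380, DSP to 272, CDH1 to 163, ZEB1 to 57 and EPCAM to 13. In replicate 2 the sums were 954 for CDH2, 627 for TJP1, 304 for JUP, 102 for DSP, 83 for CTNND1, 69 for CDH1, 36 for CTNNA1 and 26 for ZEB1. The order depends on the naming. By transcript bounds the replicate 1 sums were 2609 for DSP, 801 for CDH1 and 22 for CDH2. These are sums over called peaks, so they move with how much of a gene was called and with its length, and they are no measure of expression.

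**Figure D4:**
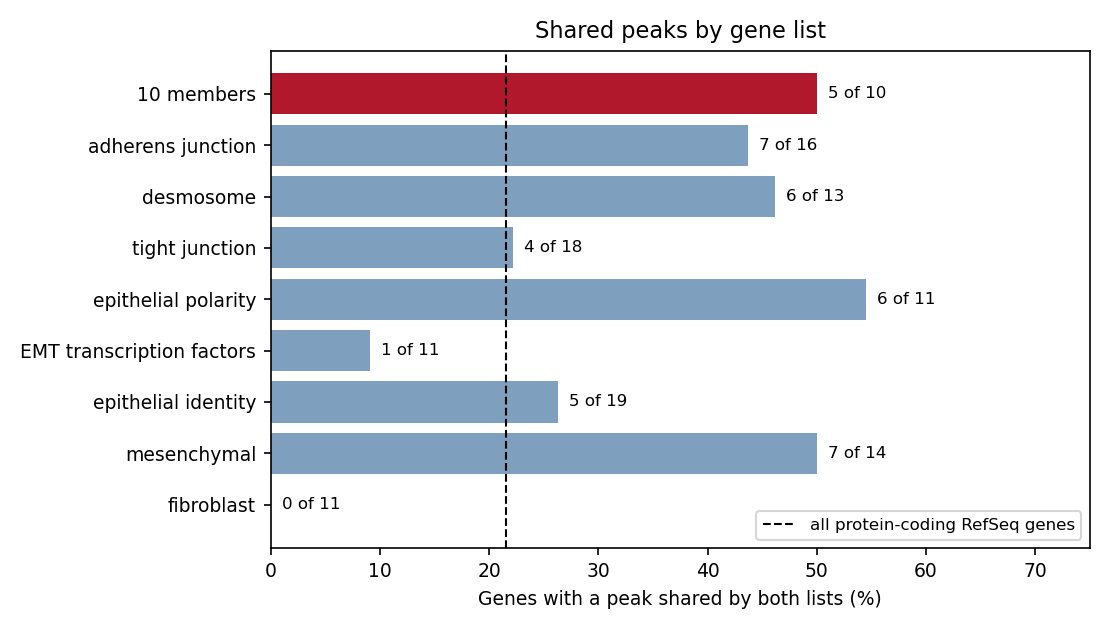
Percent of genes with a peak shared by both lists, for the 10 members, 7 wider lists of junction and EMT genes and the fibroblast markers, with the count beside each bar; the dashed line is the 21.5% of all protein-coding RefSeq genes. Epithelial polarity and mesenchymal genes reach 54.5% and 50%, and fibroblast markers 0 of 11.

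The wider pathway was described with 7 lists of 100 genes in all, 10 of them the members. Of the 100, 34 held a shared peak, and of the 90 that are not members, 29 did. Over all protein-coding RefSeq genes the share was 21.5%, and over the genes named in either list it was 35%. No test of the lists was made. Adherens junction genes had 7 of 16, among them P-cadherin (CDH3), with 2 shared peaks and highest folds of 13.21 and 32.28, the actin linker vinculin (VCL), with 2 shared peaks and 2202 reads in replicate 1, and the nectin NECTIN3, with 1 intron peak of 20 and 15 reads. Desmosome genes had 6 of 13, among them the plakin PPL with an exon peak of 3396 and 744 reads. The shared peaks of the plakophilin PKP3 and of envoplakin (EVPL) lay upstream of these genes, with 58 and 46 reads for PKP3 and 677 and 371 for EVPL, and not inside their bounds. Tight junction genes had 4 of 18 (22.2%), near the share of all protein-coding genes. Among them were the scaffold MAGI1 (4 shared peaks in each list), the polarity protein PARD3 (3) and CLDN3, whose shared peak was intergenic with 141 and 6 reads.

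Epithelial polarity genes had 6 of 11. PARD3 led with highest folds of 18.67 and 63.28 at 26 and 15 reads. Both folds lay on the lines of highest fold per read, so they follow the reads. PATJ, a scaffold of the Crumbs complex, had 2 shared exon peaks in each list with 68 and 17 reads in sum. SCRIB, a basolateral polarity protein, had 2 shared peaks in each list, all upstream and none inside its bounds. Epithelial identity genes had 5 of 19, led by the keratins of simple epithelia, with KRT8 (7 shared peaks of 7 named in each list, 25351 and 9511 reads), KRT18 (1, with 8975 and 1740) and KRT7 (3, with 140 and 77). Some of these were upstream peaks, among them the highest fold of KRT8 in replicate 1 (5006 reads) and of KRT7 in replicate 2 (12 reads). The KRT18 peak was of the promoter class. Mesenchymal genes had 7 of 14, including CDH2 and, among the others, the matrix protein TGFBI (6 shared peaks, 5872 and 1587 reads) and the receptor kinase AXL (4, with 871 and 228). Some markers of each type thus held shared peaks in this line. For the epithelial identity list the share was 26.3%, near the 21.5% of all protein-coding genes. It was below the 35% of genes named in either list, and EPCAM was among those without a shared peak. The share was 50% for the mesenchymal list.

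EMT transcription factors had 1 of 11, TWIST2, through a promoter peak of 19 reads in replicate 1 and 11 in replicate 2. That count was 0 at -log10 p of 5 or more, with 50% overlap or with exon peaks only. By transcript bounds it was 3 of 11, since FOXC2 and TCF3 each had 1 shared peak inside their bounds. Markers of fibroblasts, the source of the vesicles, had 0 of 11 by name. COL1A1 was named in both lists without a shared peak, THY1 and PDGFRB were named in replicate 1 alone, and the other 8 were named in neither. By bounds, COL1A1 and THY1 each had 1 shared peak. RNA carried by vesicles and RNA made by PANC-1 cells cannot be told apart in these lists.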

How the data were processed

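RNA immunoprecipitation sequencing of YBX1 and its input was deposited as 2 peak lists, 1 per replicate. Per the submitters' processing notes, trimming used cutadapt 1.9.1, alignment used Bowtie2 2.2.4 and the build was hg19; no source used here names the program that called peaks. Per the file headers, each peak carries a tag count (whole reads inside it, with nothing said of whether input reads are included), a fold or ratio of IP over input, a score of 10 times the negative log10 of p, and a false discovery rate in percent, all the authors' own values. Lengths, summits, transcript bounds and distances are also as deposited.

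From these, rows (60488 and 55416) were collapsed to unique peaks with Python 3.11.15, pandas 2.3.3 and SciPy 1.17.1, and peaks were set against the other list. The overlap step was tested on simulated data. Genes were keyed to RefSeq symbols through accessions (98.8% and 98.9% of rows matched), else by symbol. Promoter sequences are from RefSeq, GRCh38.p14; of the members, CDH1, CTNND1, SNAI2 and EPCAM were not matched there. Depth is known only as reads inside peaks, so intervals cover counting error only.

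The members and lists were chosen with earlier results of these data known. All members were named, and in each wider list the 3 other genes with the most shared peaks, ties going to the higher of the smaller folds; a gene that this rule would name is not reported here. No hypothesis test was run, because the files hold no value per sample. The alternatives were stricter p and fold, 50% overlap, genes by transcript bounds, exon peaks only and each list alone.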

Additional observations from a re-analysis of the deposited data

How the results depend on the processing

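The members with a shared peak numbered 5 with all peaks. The count was again 5 at -log10 p of 5 or more and at a fold of 4 or more. It was also 5 with 50% overlap of both peaks and with exon peaks only. Each time they were CDH1, CDH2, CTNND1, JUP and TJP1. By transcript bounds there were 6 members. Of all RefSeq genes, 16.8% had a shared peak with all peaks, and 13.2%, 15.7%, 14.9%, 6.34% and 14.3% under these settings in turn. At -log10 p of 20 or more there were 2, CDH1 and CDH2, where 3.7% of RefSeq genes had one. At that setting CDH2 counted only through its intergenic peak, -474922 bp from the listed start. Genes of the wider lists were then 9 in place of 34, and 21 with exon peaks only, where 6.34% of RefSeq genes had one. At -log10 p of 20 or more the shared part of the members' peaks was 10.5% in replicate 1 (2 of 19) and 100% in replicate 2 (2 of 2), and with exon peaks only it was 50% in replicate 2 (9 of 18). Leaving out 1 replicate ends the demand for overlap, so the members then ranged from 8 to 9 and the wider genes from 60 to 65. The share of exon peaks stayed within its interval under the 4 settings tried for it. The count of members with a peak inside their bounds, added after the data were seen, was 9 in each list. Among the 19443 protein-coding RefSeq genes, 7739 had such a peak in replicate 1 and 7567 in replicate 2. Of 70 further values for single lists and genes, 54 stayed close and 16 moved. No paired analysis was possible because each list already sets an IP against the input of its own number and holds no value per sample. Replicate 2 peaks of 6 to 9 reads limit what that list can show.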
